A study of Danio rerio with 8 samples.

Results

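Genes of 3 molecular systems that steer migrating neurons were followed in whole zebrafish larvae after knockdown of LIS1: the Reelin pathway (reln, vldlr, dab1a), the kinase Cdk5 with its activators (cdk5, cdk5r1b, cdk5r2a) and the doublecortin family (dcx, dclk1a, dclk1b, dclk2a). The 10 genes were chosen by name, with earlier results of these data known. All array probes listed under a transcript accession of one of them were taken, which gave 19 of 43603 probes. The 19 probes belonged to 8 genes, with 4 for vldlr, 3 each for dab1a, cdk5r1b and dclk2a, 2 each for cdk5 and dclk1a, and 1 each for cdk5r2a and dclk1b. No probe was matched to reln or dcx, which therefore have no value here. The names used held no entry for dcx, and 18534 probes had no gene name, so the array may still carry probes for these genes. Of the 19 probes, 15 passed the filter on dim probes (called well above background on each of the 4 morphant arrays, each of the 4 control arrays, or both) and were tested.

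The LIS1 morphants carried a transient morpholino knockdown, were picked for a slight phenotype and for seizures, and were compared with controls labelled WT. Both groups were of the WIK background, were collected at 4 days post fertilization and came from shared egg pools, and each of the 4 samples per group was a pool of 10 larvae on its own 1-colour array. The labels do not say whether controls received an injection, and a pool of morphants holds only larvae that passed the selection. In RNA of whole larvae, fewer cells of a type and less RNA per cell cannot be told apart.

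Reelin is a secreted glycoprotein that binds the lipoprotein receptors Vldlr and Lrp8 on neurons, and the receptors pass the signal on through phosphorylation of the adaptor Dab1 inside the cell. In mammals, loss of Reelin, of both receptors or of Dab1 inverts the order of cortical layers. Cdk5 is a kinase that is active only when bound to a p35 or p39 activator, the products of the cdk5r1 and cdk5r2 genes, and it phosphorylates Dab1, doublecortin and the LIS1 partner Ndel1. Doublecortin and the doublecortin-like kinases bind and stabilise microtubules, and mutations of the human genes for doublecortin and LIS1 both cause lissencephaly, a smooth brain.

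Levels are log2 processed signals minus the 75th percentile of the same array, so each rise or fall is relative to that percentile. The percentile itself averaged a signal of 1598 ± 154 on morphant arrays and 1237 ± 178 on control arrays (SD, n = 4 each; two-sided exact permutation p = 0.0571, where 4 against 4 allows no p below 0.0286). The median signal of the spike-in controls went the other way, at 1960 ± 173 on morphant arrays and 2503 ± 287 on control arrays (exact permutation p = 0.0571). The percentile relative to the spike-ins was thus higher in morphants by 0.72 on the log2 scale (exact permutation p = 0.0286), and with spike-in scaling, chosen after seeing the data, the median change of all 36700 probes was 0.69. Changes below are relative to the percentile. With spike-in scaling 3 member probes were still called lower, dab1a A_15_P622481, cdk5 A_15_P632001 and cdk5r1b A_15_P175321. In that setting 5 were called higher: vldlr A_15_P100674, A_15_P345310 and A_15_P745956, dab1a A_15_P414100 and dclk1b A_15_P245631. Between 83.8% and 88.8% of spots were well above background and no spot was saturated. Levels correlated at 0.978 to 0.987 between morphant arrays and at 0.973 to 0.992 between control arrays. The number of arrays limits the precision. The 6 probes of the LIS1 genes pafah1b1a and pafah1b1b differed by -0.03 to 0.65, and 1 of them, pafah1b1a A_15_P281691, was called, higher in morphants (limma adjusted p = 0.0305). A morpholino can act on translation and leave the transcript in place, and its type is not given in the sources used here, so these levels do not check the knockdown.

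Of the 15 probes tested, 7 fell and 1 rose in the LIS1 morphants (limma, adjusted p under 0.05 over 36700 probes). Across all probes, 21% fell and 17.4% rose, and 38.5% were called in either direction. The 7 falls belonged to dab1a, cdk5, cdk5r1b, dclk1a and dclk2a, and the rise to dclk1b, while no probe of vldlr or cdk5r2a was called. The median change of the 15 probes was -0.44 on the log2 scale, against -0.03 over all 36700. Morphant and control arrays did not overlap for 9 of the 15, against 37.9% of all probes. The genes were not chosen at random, and probes of a gene are not independent, so these shares describe the genes and test nothing about them as a set.

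**Figure D1:**
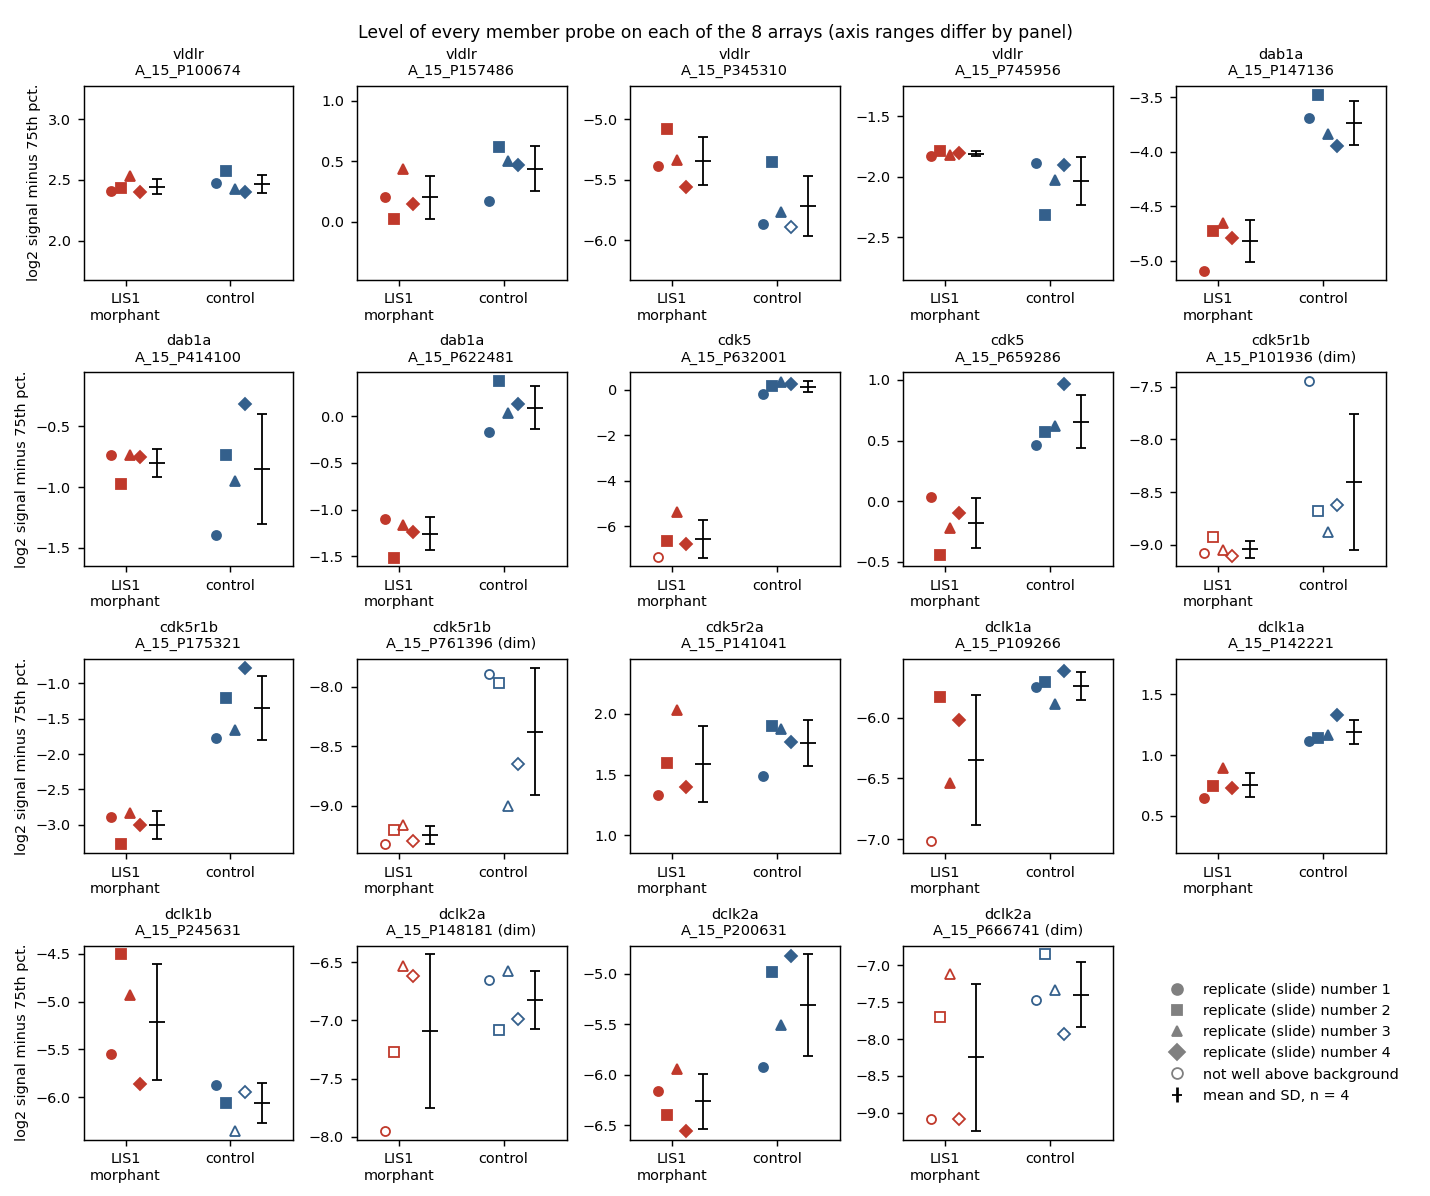
Log2 level of each of the 19 member probes (vertical axes, log2 signal minus the array's 75th percentile, with a different range in each panel) on the 4 LIS1 morphant arrays (red, left) and the 4 control arrays (blue, right). Symbols give the replicate number, open symbols mark arrays where the probe was not well above background, and black bars show mean and SD. The cdk5 probe A_15_P632001 lies between -7.35 and -5.38 in morphants and between -0.20 and 0.34 in controls.

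In the Reelin arm, the receptor gene vldlr was measured by 4 probes and none was called. Its brightest probe, A_15_P100674, read 2.41, 2.43, 2.54 and 2.40 in morphant pools 1 to 4, against 2.48, 2.57, 2.43 and 2.40 in control pools 1 to 4. The groups overlapped almost fully, and the difference was -0.02, with a 95% confidence interval from -0.26 to 0.21 (limma adjusted p = 0.878). For this probe a change of more than 0.26 on the log2 scale in either direction thus lay outside the interval. Its sign was positive after normexp background correction with quantile normalization, in the authors' value table, with median scaling, with spike-in scaling (0.70, adjusted p = 0.0112) and without control replicate 2.

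The other vldlr probes differed by -0.24 (A_15_P157486), 0.22 (A_15_P745956) and 0.38 (A_15_P345310), with adjusted p-values of 0.216, 0.191 and 0.0987 in the limma fit. Probe A_15_P157486 read 0.20, 0.02, 0.44 and 0.15 in morphants and 0.18, 0.61, 0.50 and 0.47 in controls, with overlapping groups. Probe A_15_P745956 read -1.83, -1.79, -1.82 and -1.80 in morphants and -1.89, -2.31, -2.03 and -1.91 in controls, so that its groups did not overlap although the call was missed. Probe A_15_P345310, at -5.56 to -5.08 in morphants and -5.89 to -5.35 in controls, was dim, with 3 of 4 control arrays above background. It was tested because all 4 morphant arrays were above background, and so entered only through the group where it was higher. It was higher in the morphant than in the control array on each of the 4 slides, by 0.27 to 0.48. It passed with the replicate number as a block (adjusted p = 0.0309), with median scaling (adjusted p = 0.0481) and without control replicate 2 (0.50, adjusted p = 0.0423), and the change was 0.15 after normexp background correction with 75th percentile scaling (adjusted p = 0.928). The 4 probes spanned 0.61 between their changes, a span reached by 36.4% of the 7036 named genes with more than 1 tested probe.

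The adaptor gene dab1a fell by 2 of its 3 probes. Probe A_15_P622481, the brightest, read -1.10, -1.51, -1.17 and -1.24 in morphant pools, against -0.17, 0.37, 0.03 and 0.13 in control pools. All morphant pools lay below all control pools, and the change was -1.35 (standard error 0.15, limma adjusted p = 0.000373), which leaves 39.3% of the control level. The dimmer probe A_15_P147136 read -5.09, -4.73, -4.65 and -4.80 in morphants and -3.69, -3.47, -3.84 and -3.95 in controls. Here too the groups were apart, with a change of -1.08 (standard error 0.15, adjusted p = 0.000979 in limma). The change of this probe was -0.38 and did not pass after normexp background correction with 75th percentile scaling (adjusted p = 0.663), and was -0.35 with spike-in scaling (adjusted p = 0.205), where the brightest probe was at -0.62 (adjusted p = 0.0386).

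The third dab1a probe, A_15_P414100, went with neither. It read -0.73, -0.97, -0.73 and -0.75 in morphants and -1.40, -0.74, -0.95 and -0.31 in controls. The control pools spread on both sides of the morphant pools, and the difference was 0.05 with a 95% confidence interval from -0.44 to 0.54 (limma adjusted p = 0.869), or -0.13 without control replicate 1 (adjusted p = 0.573). The difference in change between this probe and the brightest was 1.40, with a 95% confidence interval from 0.97 to 1.83. In the exact permutation test it reached the smallest p that 4 against 4 arrays allow, 0.0286, or 0.1 after Benjamini-Hochberg adjustment over the 7 probe pairs compared. Given the other pairs, the adjusted p could not be lower for a difference of any size. Probes of a gene differed by as much in 10.0% of the named genes with more than 1 tested probe.

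On the same arrays, the level of vldlr relative to dab1a was compared, each by its brightest probe. The log2 difference vldlr minus dab1a was 3.70 ± 0.18 in morphants and 2.38 ± 0.20 in controls (SD, n = 4 each). Between these probes the change was thus unequal, by 1.32 with a 95% confidence interval from 0.99 to 1.66 (exact permutation p = 0.0286, 0.04 after adjustment over 7 pairs of members). After normexp with 75th percentile scaling it was 1.17 (adjusted p = 0.1). The difference missed the threshold in 7 of 13 alternatives, the test within slides included, which could not pass. After adjustment a pair could pass only when several of the 7 pairs reached the smallest p together. A miss can therefore come from the other pairs and does not by itself show a weaker difference. Of the other dab1a probes, A_15_P414100 changed by 0.05 and A_15_P147136 by -1.08, and neither was compared with vldlr. The unequal change was therefore tested for the brightest dab1a probe only.

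In the Cdk5 arm, the kinase gene cdk5 fell by both of its probes, but by very different amounts. Probe A_15_P659286 read 0.04, -0.44, -0.22 and -0.09 in morphant pools, against 0.46, 0.57, 0.62 and 0.97 in control pools. Each morphant pool was below each control pool. The change was -0.83 (standard error 0.16, limma adjusted p = 0.00382), which leaves 56.1% of the control level. With spike-in scaling it was -0.11 and did not pass (adjusted p = 0.659).

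Probe A_15_P632001 of the same cdk5 transcript read -7.35, -6.67, -5.38 and -6.80 in morphants and -0.20, 0.19, 0.34 and 0.25 in controls. Its unscaled processed signal averaged 19.3 on morphant arrays and 1398 on control arrays. The probe was near the bottom of the measurable range in morphant pools 1, 2 and 4, and was not well above background in pool 1. Morphant pool 3, at -5.38, lay further above the dimmest signal called well above background on its array, -6.87. The fitted change was -6.69 (standard error 0.37, limma adjusted p = 7.94e-06). The probe was tested because all 4 control arrays were above background. No fold is given, since morphant pool 1 was not well above background and pools 2 and 4 lay close to that limit. The probe passed in all 15 alternatives in which it was tested. The size of its change differed between settings, at -5.01 in the authors' value table and -3.99 after normexp with 75th percentile scaling. The source of that difference was not tested. In both normexp settings an offset of 50 was added to the signals, which by itself shrinks log2 differences of dim probes. Within the 4 slides the difference ran from -7.15 to -5.72.

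The change of A_15_P632001 minus that of A_15_P659286 was -5.86 on the log2 scale, with a 95% confidence interval from -7.04 to -4.68 (exact permutation p = 0.0286, 0.1 after adjustment over 7 probe pairs). Given the other pairs, the adjusted p could not be lower for a difference of any size. The difference was -3.21 after normexp with 75th percentile scaling and that offset, so its size differed between settings. Among named genes with more than 1 tested probe, 34 of 7036, or 0.483%, had probes that differed by at least 5.86 in the reported setting, and the median span between the probes of a gene was 0.44. Both cdk5 probes are listed under a single transcript accession, and the source of their disagreement was not tested.

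The activator gene cdk5r1b, which encodes a zebrafish p35, fell on its measurable probe. Probe A_15_P175321 read -2.90, -3.28, -2.83 and -3.00 in morphant pools, against -1.77, -1.21, -1.66 and -0.78 in control pools. The groups were apart by more than a log2 unit, and the change was -1.65 (standard error 0.23, limma adjusted p = 0.000879), which leaves 31.9% of the control level. Within the slides it ran from -2.22 to -1.13, and it passed under all 16 alternatives, between -1.79 and -0.92. The other cdk5r1b probes, A_15_P101936 and A_15_P761396, were not well above background on any of the 8 arrays and give no fold. They read between -9.32 and -8.93 in morphants and between -9.00 and -7.45 in controls.

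The activator gene cdk5r2a, which encodes a p39, read 1.33, 1.60, 2.03 and 1.40 in morphants and 1.49, 1.90, 1.88 and 1.77 in controls on its single probe, A_15_P141041. The groups overlapped, and the difference of -0.17 had a 95% confidence interval from -0.58 to 0.24 (limma adjusted p = 0.486). The activators differed in their change: cdk5r1b minus cdk5r2a was -4.59 ± 0.33 in morphants and -3.11 ± 0.42 in controls (SD, n = 4 each), an unequal change of -1.48 with a 95% confidence interval from -2.13 to -0.83 (exact permutation p = 0.0286, adjusted 0.04). It was -1.02 after normexp with 75th percentile scaling (adjusted p = 0.16). The fall of cdk5r1b was also larger than that of the brighter cdk5 probe, with a difference of -0.81 (95% confidence interval from -1.20 to -0.42, exact permutation p = 0.0286, adjusted 0.04), which was -0.41 and missed the threshold after normexp with 75th percentile scaling (adjusted p = 0.16). Each of these cdk5r1b differences missed the threshold in 7 of 13 alternatives, the test within slides included, which could not pass. Here too, passing depended on the p-values of the other pairs. For cdk5r2a against the brighter cdk5 probe, the unequal change missed the threshold, at 0.67 with a 95% confidence interval from 0.04 to 1.29 (exact permutation p = 0.0571, adjusted 0.0667). The other cdk5 probe, A_15_P632001, changed by -6.69 and was compared with neither activator gene.

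**Figure D2:**
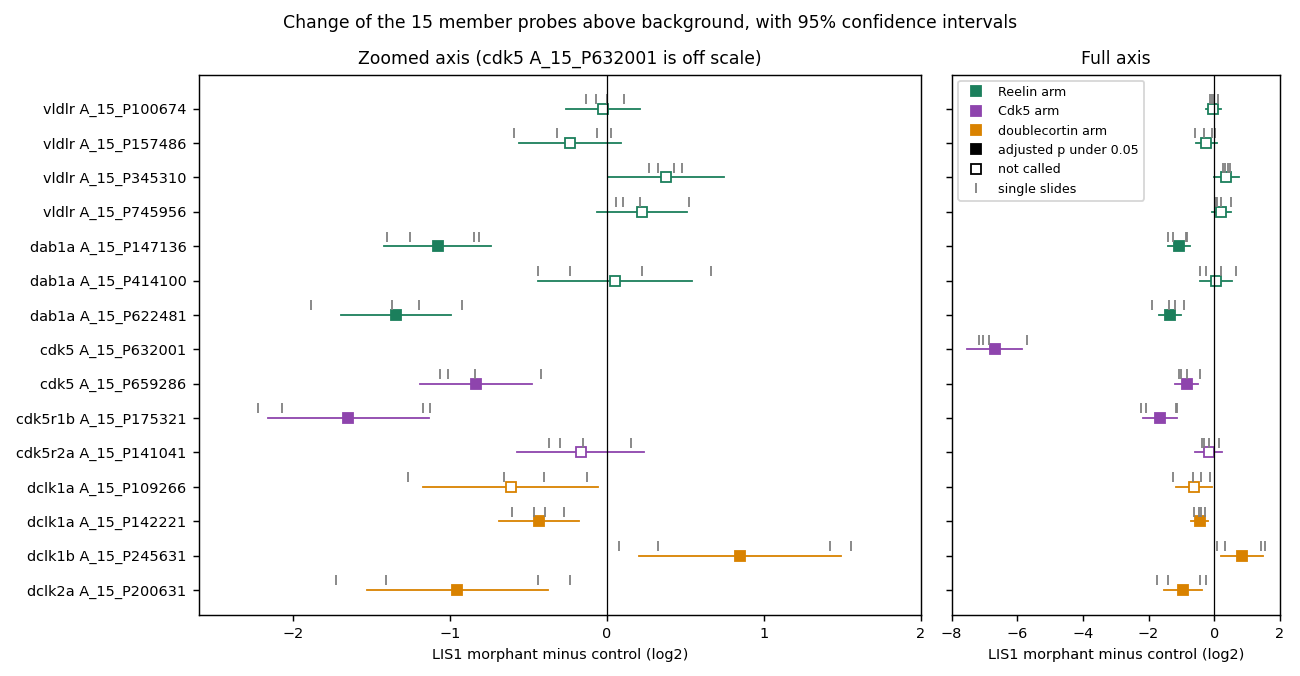
Change of the 15 tested member probes, LIS1 morphant minus control on the log2 scale (horizontal axes, a zoomed axis left and the full range right), with 95% confidence intervals from the limma fit. Filled squares passed an adjusted p of 0.05, open squares did not, and grey ticks give the difference on each of the 4 slides. The dab1a, cdk5 and cdk5r1b probes that were called lie below 0 on every slide. Of the vldlr probes, A_15_P345310 and A_15_P745956 lie above 0 on every slide, A_15_P100674 lies around 0, and A_15_P157486 runs from -0.59 to 0.03.

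In the doublecortin arm, dclk1a fell slightly. Its brighter probe, A_15_P142221, read 0.65, 0.74, 0.89 and 0.73 in morphant pools, against 1.11, 1.14, 1.17 and 1.33 in control pools. The groups did not overlap although the change was small, -0.44 (standard error 0.11, limma adjusted p = 0.0155), or 73.9% of the control level. After normexp with 75th percentile scaling the change was the same, -0.44, but did not pass (adjusted p = 0.0839). With spike-in scaling it was 0.29 and did not pass (adjusted p = 0.225).

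The dim dclk1a probe, A_15_P109266, differed by -0.61 and was not called (limma adjusted p = 0.0783). It was tested because all 4 control arrays were above background, and so entered only through the group where it was higher. The probe was above background in 3 of 4 morphant pools and passed without morphant replicate 2 (-0.79, adjusted p = 0.0348). It was -0.06 and -0.09 after normexp with 75th percentile scaling and with quantile normalization, -0.17 in the authors' value table, -0.39 without morphant replicate 1 and 0.11 with spike-in scaling. Its morphant pools ranged from -7.02 to -5.83 and its control pools from -5.89 to -5.61.

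The paralog dclk1b was called in the other direction. Its single probe, A_15_P245631, read -5.55, -4.51, -4.93 and -5.86 in morphants and -5.88, -6.06, -6.35 and -5.94 in controls. Morphant pools 2 and 3 stood well above the controls, pool 1 less so, and pool 4 lay just above the highest of them. The change was 0.85 (standard error 0.28, limma adjusted p = 0.0432), and 2 of 4 control arrays were above background. This call was lost in 10 of 16 alternatives. The probe was tested because all 4 morphant arrays were above background, and so entered only through the group where it was higher. It did not pass with the replicate number as a block (adjusted p = 0.0622), with no filter on dim probes (adjusted p = 0.0566), after normexp with quantile normalization (0.22, adjusted p = 0.0557) or with 75th percentile scaling (0.26, adjusted p = 0.847), nor without any 1 of the 4 control replicates or without morphant replicate 2 or 3 (adjusted p = 0.0556 to 0.105 over these 6). Within the slides the difference was 0.32, 1.55, 1.42 and 0.08 for replicate numbers 1 to 4.

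The gene dclk2a was measurable on 1 of its 3 probes, which are listed under different transcript variants. Probe A_15_P200631 read -6.17, -6.40, -5.95 and -6.56 in morphant pools, against -5.93, -4.99, -5.51 and -4.83 in control pools. The highest morphant pool and the lowest control pool nearly touched, and the change was -0.95 (standard error 0.25, limma adjusted p = 0.0177). The signal was close to background, and the change was -0.14 after normexp with 75th percentile scaling (adjusted p = 0.936), -0.18 after normexp with quantile normalization (adjusted p = 0.174) and -0.33 in the authors' value table (adjusted p = 0.112), where it did not pass. It was also lost without control replicate 2 (-0.85, adjusted p = 0.0525) and with spike-in scaling (-0.23, adjusted p = 0.546). The probes of the other variants, A_15_P148181 and A_15_P666741, were not well above background on any array and give no fold. The first read -7.95 to -6.54 in morphants and -7.09 to -6.58 in controls, and the second -9.09 to -7.11 in morphants and -7.93 to -6.85 in controls.

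The doublecortin-like kinases were also set against each other, with the control level of dclk1b in part at the floor. The dclk1b probe passed the filter only through the morphants, where it was higher. The pairs with dclk1b are therefore no separate support for its rise. The difference dclk1a minus dclk1b changed by -1.28 with a 95% confidence interval from -2.03 to -0.53, and dclk2a minus dclk1b by -1.80 with an interval from -2.77 to -0.82 (exact permutation p = 0.0286 and adjusted p = 0.04 for each). Under the alternatives the first missed the threshold in 8 of 13 (adjusted p up to 0.367) and the second in 7 of 13, leave-one-out settings included. Both counts include the test within slides, which could not pass, as its smallest p is 0.125. After normexp with 75th percentile scaling the differences were -0.70 and -0.40, and why their size differed was not tested. Passing also depended on the p-values of the other pairs, and the cause of the lost calls was not tested. Between dclk2a and dclk1a the change was -0.52, with an interval from -1.12 to 0.09 (exact permutation p = 0.114, adjusted 0.114), and it took the opposite sign after normexp and in the authors' value table.

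**Figure D3:**
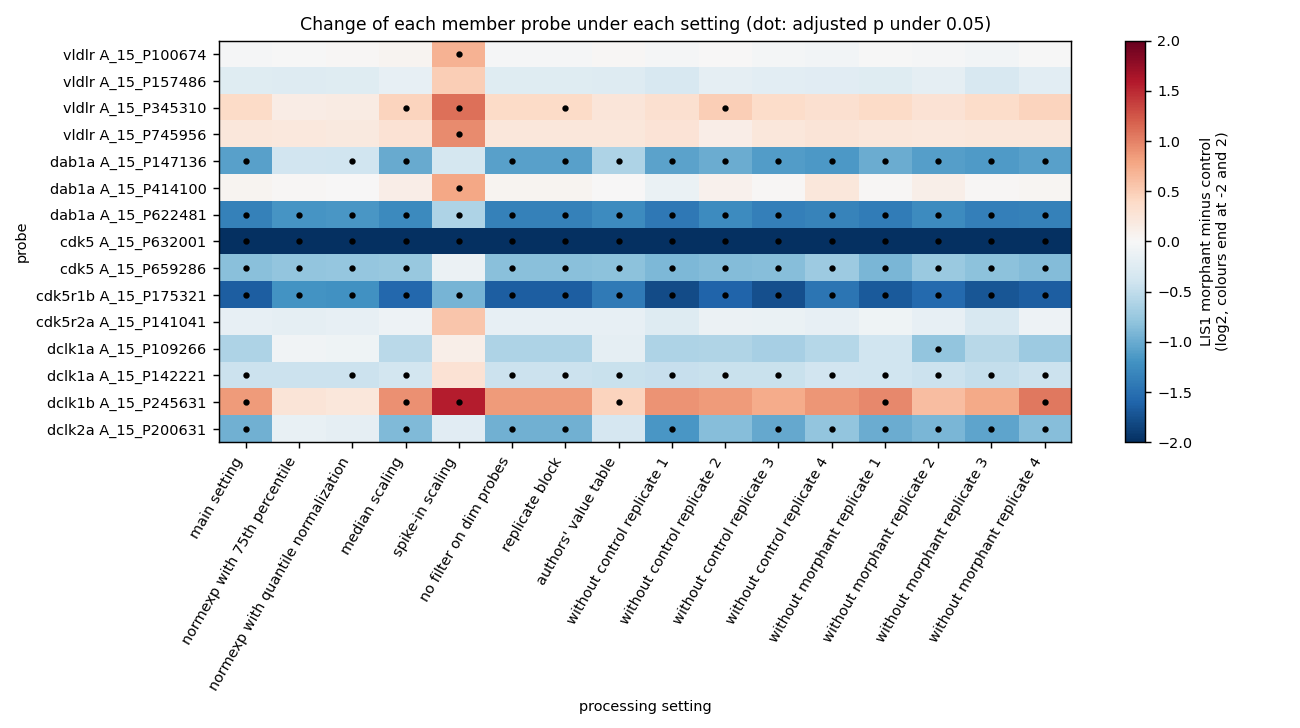
Change of each tested member probe (rows) under each processing setting (columns), coloured by LIS1 morphant minus control on the log2 scale, with a dot where the adjusted p was under 0.05. The probes cdk5 A_15_P632001, cdk5r1b A_15_P175321 and dab1a A_15_P622481 carry a dot in every column, whereas the dclk1b probe carries 6 dots.

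Further genes of the same systems were taken from 3 lists, of which 75 of 131 genes had a measurable probe, and each was represented by its brightest probe. Of the 75, 14 fell and 9 rose, or 30.7% in all, against 35.6% of all 12140 named genes (18.5% lower and 17.2% higher). The share called was thus no higher than the background, and the median change of the 75 was -0.06, against -0.01 over all named genes. With the arrays' background corrected by normexp and scaled to the 75th percentile, 2 of the 75 were called, stmn1a and dcdc2b. With spike-in scaling 54 were called, and with the replicate number as a block 31 were.

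Of 25 Reelin pathway genes, 6 fell and 3 rose, with a median of 0.01. The gene dab1b, a paralog of dab1a, read -4.58, -4.90, -4.76 and -4.46 in morphants and -3.55, -2.96, -3.16 and -3.05 in controls. All morphant pools were lower, by 1.49 on average (standard error 0.16, limma adjusted p = 0.000321), and its 3 other probes changed by -1.90 to -1.26 and passed as well. Falls of 1.52 were fitted for both gsk3ba, which encodes a form of the kinase Gsk3 beta that acts downstream of Akt, and akt3a, a gene of Akt itself (limma adjusted p = 0.000344 and 0.00197). After normexp with 75th percentile scaling, where none passed, the changes were -0.76 for dab1b, -0.56 for gsk3ba and -0.74 for akt3a (adjusted p = 0.275, 0.526 and 0.358).

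Each of the 3 rises in that list was lost without single arrays. The paralog gsk3bb rose by 0.95 (limma adjusted p = 0.0324), a call lost without control replicate 1, 2 or 3 or morphant replicate 3 or 4 (adjusted p = 0.0546 to 0.0814). The small GTPase gene rap1ab rose by 0.52 (adjusted p = 0.0248) while its second probe differed by 0.13. That call was lost without control replicate 2 (adjusted p = 0.0509), morphant replicate 2 (adjusted p = 0.0632) or morphant replicate 4 (adjusted p = 0.0595). The brightest probe of the Src-family kinase gene yes1 rose by 0.47 (adjusted p = 0.0394), but another of its 4 probes fell by 0.52 (adjusted p = 0.0369), and the rise was lost without any 1 of 6 single arrays: control replicates 2, 3 and 4 and morphant replicates 1, 2 and 4 (adjusted p = 0.0726 to 0.105).

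Of 27 genes for Cdk5 activators, partners and substrates, 5 fell and 3 rose, with a median of -0.08. The second p35 gene, cdk5r1a, read -6.43, -6.14, -5.55 and -6.37 in morphants and -5.36, -4.71, -4.93 and -4.48 in controls. Every morphant pool was lower, and the change was -1.25 (standard error 0.25, limma adjusted p = 0.00477), though -0.34 after normexp with 75th percentile scaling (adjusted p = 0.785) and -0.53 with spike-in scaling (adjusted p = 0.171). The second p39 gene, cdk5r2b, differed by 1.49 and was not called (adjusted p = 0.153). Control pool 4 read -5.23, against -2.18 to -1.41 in the other control pools, and without it the difference was 0.60 (adjusted p = 0.0877). With spike-in scaling it was 2.22 and passed (adjusted p = 0.0324). The LIS1 partner gene nde1 fell by 0.63 (adjusted p = 0.00372), though it was at 0.10 with spike-in scaling (adjusted p = 0.647), and the brighter probe of its relative ndel1b, a Cdk5 substrate, rose by 0.72 (adjusted p = 0.00645), while the other ndel1b probe fell by 0.79 (adjusted p = 0.0232).

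In the same list, the small GTPase gene rac1b rose by 0.92 (limma adjusted p = 0.0106), and the focal adhesion kinase gene ptk2ab by 0.39 (adjusted p = 0.0359), whose 4 other probes were at 0.30 to 0.49, with 2 of them called. The cyclin-dependent kinase gene cdk17 fell by 0.47 (adjusted p = 0.022). The ptk2ab call was lost without any 1 of 6 single arrays, all but control replicate 4 and morphant replicate 3 (adjusted p = 0.0578 to 0.0927), and the cdk17 call without control replicate 2 (adjusted p = 0.0594) or morphant replicate 1 (adjusted p = 0.0547). The cdk17 change was also -0.12 and -0.15 after normexp with 75th percentile scaling and with quantile normalization, -0.21 in the authors' value table and 0.25 with spike-in scaling, and passed in none of these (adjusted p = 0.934, 0.147, 0.118 and 0.328).

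Of 23 genes for doublecortin relatives and other microtubule-binding proteins, 3 fell and 3 rose, with a median of -0.00416. The end-binding protein gene mapre3a fell by 1.68, the minus-end binding protein gene camsap2a by 1.17 and the stathmin gene stmn1a by 0.94 (limma adjusted p = 0.00344, 0.00207 and 0.0104), although the other stmn1a probe was at -0.02. After normexp with 75th percentile scaling, mapre3a was at -0.48 and camsap2a at -0.62, and neither passed (adjusted p = 0.624 and 0.364). With spike-in scaling camsap2a was at -0.44 and stmn1a at -0.22, and neither passed (adjusted p = 0.196 and 0.537). The stathmin relative stmn4 read -4.67, -4.18, -4.38 and -4.27 in morphants and -7.10, -7.23, -6.34 and -8.20 in controls. It was well above background in all 4 morphant pools and in no control pool. The stmn4 probe was thus tested because all 4 morphant arrays were above background, and its rise passed (limma adjusted p = 0.00049). For a fold, each control array counted at the probe's own signal or at the dimmest signal called well above background there, whichever was higher. That gave a 4.51-fold rise on the reported scale, which is no lower bound for other settings. The stmn4 change was 0.70 after normexp with either scaling (adjusted p = 0.322 with the 75th percentile and 0.000693 with quantile normalization) and 1.24 in the authors' value table (adjusted p = 0.00027), each below that fold. The end-binding protein gene mapre2 rose by 0.78 and the doublecortin-domain gene dcdc2b by 0.68 (adjusted p = 0.00371 and 0.00305), and their other probes changed by 0.39, without passing, and by 0.97. The mapre2 change was 0.39 after normexp with 75th percentile scaling (adjusted p = 0.624).

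**Figure D4:**
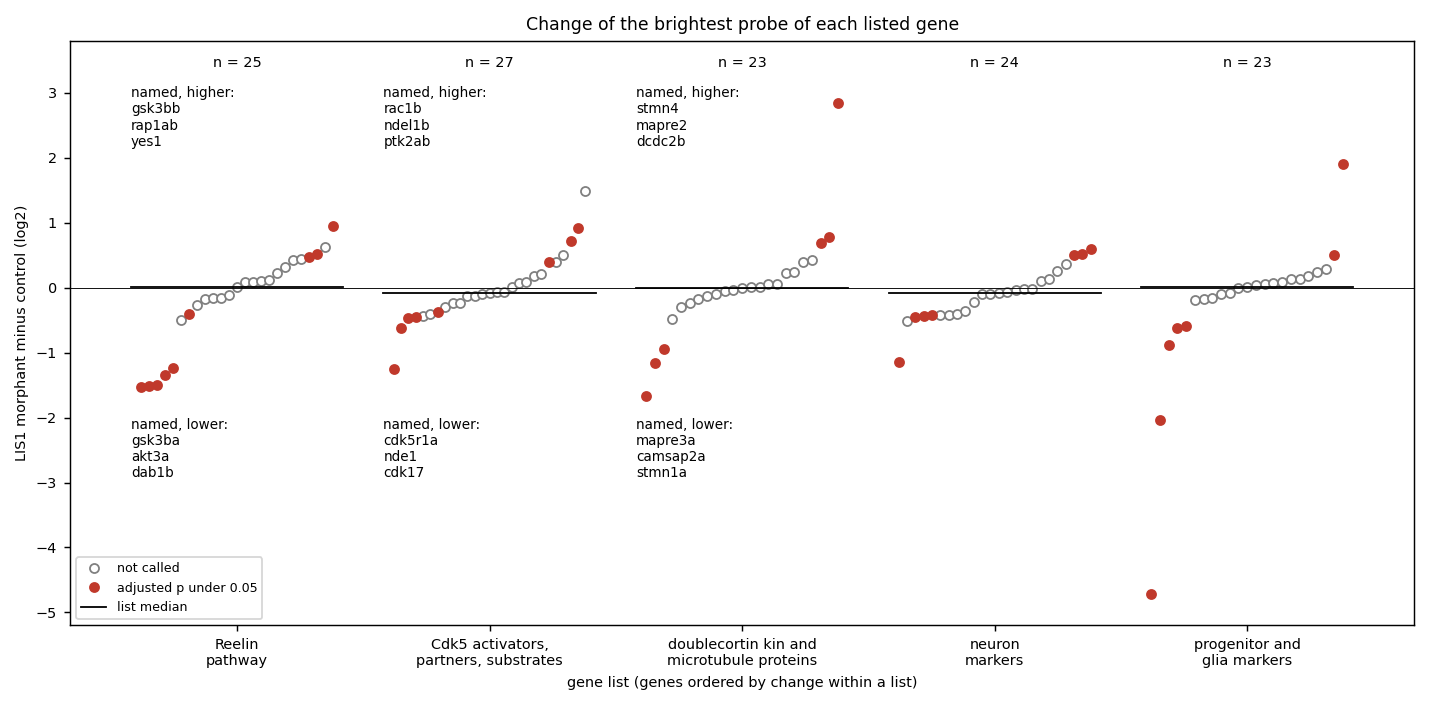
Change of the brightest probe of each listed gene (LIS1 morphant minus control, log2, vertical axis) in 3 pathway lists and in 2 lists of cell type markers (horizontal axis), ordered within each list. Red points passed an adjusted p of 0.05 and black bars give list medians, which lie between -0.09 and 0.01 in all 5 lists.

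Markers of the cells that express these genes were set beside the results, to be read against 18.5% lower and 17.2% higher among all named genes. All 24 neuron markers with a probe on the array were measurable, of which 4 fell and 3 rose, with a median change of -0.09. Their mean level per array ran from 1.24 to 1.50 in morphants and from 1.28 to 1.57 in controls. Of 23 markers of neural progenitors and glia, 5 fell and 2 rose, with a median of 0.01 and mean levels of 1.15 to 1.34 in morphants and 1.42 to 1.58 in controls. The gap between those levels rests largely on fabp7b, which changed by -4.72 with 3 of 4 morphant arrays above background. Its morphant pools were far apart, at -6.02, -2.42, -6.86 and -0.92, against 0.32 to 1.03 in controls. The fabp7b probe passed the filter only through the controls, where it was higher. The paralog fabp7a in the same list differed by -0.19 and was not called (limma adjusted p = 0.347). Without fabp7b the mean levels ran from 1.29 to 1.59 in morphants and from 1.44 to 1.61 in controls. Of 19 photoreceptor markers, 10 fell and none rose, with a median of -0.74 and mean levels of 2.59 to 3.46 in morphants against 3.71 to 4.14 in controls. The part of neurons, glia or retina in the falls of dab1a, cdk5 and cdk5r1b was not tested. For other tissues of the larva, 2 of 22 muscle markers fell and 2 rose (median -0.14), while 6 of 15 liver markers rose and none fell (median 0.04).

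Among the named genes whose profile over the 8 arrays was most like that of cdk5r1b, each centred on its own mean, were bri3bp and zgc:194398. Their root mean square differences from cdk5r1b were 0.10 and 0.11 log2 units. They changed by -1.57 and -1.60 in the limma fit, which is a description, since likeness was measured on the same arrays.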

How the data were processed

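The members and gene lists were chosen with earlier results of these data known. Cy3-labelled RNA was hybridised to 1-colour Agilent arrays, per the labels, of the zebrafish design 026437, per the file headers. Per the file headers, Feature Extraction 10.7.3.1 made the deposited intensity values, from which the processed signal and, for the normexp alternatives, the median signals of spot and local background were taken. The log2 scale of the authors' deposited value table was read from its values, and its normalization is not given in the sources used here. By rank, 6 of its 8 columns followed most closely not their own array but a different array from that group, so it was read by group only.

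Control spots and outlier spots were left out, spots of a probe were averaged, and log2 processed signals were centred on each array's 75th percentile. The filter on dim probes asked for a well above background call on every array of the morphants, the controls or both, which 36700 of 43603 probes met. Accessions named 25069 probes through the RefSeq and Ensembl identifiers of a RefSeq table of the assembly GRCz12tu. Accessions not found there were looked up in a second list of gene names, and both were used for names only. Groups were compared by probe in R 4.3.3 with limma 3.58.1, with Benjamini-Hochberg adjustment over all probes kept and a threshold of 0.05. Differences between probes on an array were tested by exact permutation (two-sided), adjusted over 7 pairs in each family. Lists were described by their genes' brightest probes, and the text names every member probe and up to 3 rises and 3 falls per pathway list, plus the 3 genes most like cdk5r1b, of which 1 is not reported here. The fit was tested on simulated data.

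Each slide held the morphant and the control array with the same replicate number. Deviations from the group means correlated at 0.444, 0.140, 0.304 and 0.259 within numbers 1 to 4. The highest correlation with another number was -0.156, 0.106, 0.296 and -0.00734. The numbers thus pair the arrays by slide, while the correlations for numbers 2 and 3 barely exceed those with another number. The reported fit and exact tests are unpaired, and the fit with the number as a block is an alternative. The labels do not say that samples came from separate clutches, so p-values measure the spread between these pools. Alternatives were normexp background correction with either scaling, median scaling, no filter, the replicate number as a block, the value table, the brightest probe of each gene, and leaving out each array. Normexp used an offset of 50, which shrinks log2 differences of dim probes, so smaller changes and lost calls of dim probes there are partly built in. Scaling to the median of the spike-in controls was added after seeing the data.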

Additional observations from a re-analysis of the deposited data

Results flagged for a closer look

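For the dab1a probe A_15_P414100, which was not called, morphant replicate 2 stood apart from its group at -0.97, against -0.75 to -0.73 in the other morphant pools. The gap to the nearest pool was 0.914 of the group's range, past Dixon's 95% critical value for 4 samples. Chance flags about 1 in 20 groups, and 30 groups of member probes were looked at.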

How the results depend on the processing

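The probes cdk5 A_15_P632001, cdk5r1b A_15_P175321 and dab1a A_15_P622481 kept their direction and their call under every alternative they were tested in, and cdk5 A_15_P659286 under all but spike-in scaling. Spike-in scaling, added after seeing the data, called 22284 probes, 4.54% lower and 56.2% higher, with 54 pathway genes and 8 member probes. It turned the sign of vldlr A_15_P100674 (0.701) and A_15_P157486 (0.488), cdk5r2a (0.557), dclk1a A_15_P109266 (0.112) and A_15_P142221 (0.289), nde1 (0.0997) and cdk17 (0.254). The number of member probes called was 8, and 4 after normexp with 75th percentile scaling, where 3942 of 36700 probes passed against 14116 in the reported setting and 2 pathway genes against 23. Testing the brightest probe of each gene gave 8961 calls, over fewer features. With the replicate number as a block, 16194 probes, 8 member probes and 31 pathway genes passed, the dclk1b call was lost and vldlr A_15_P345310 was gained, and no other member call changed. Leaving out single arrays gave 7 to 8 member calls, 16 to 26 pathway calls and 10541 to 14735 calls over all probes. Signs turned for vldlr A_15_P100674 (0.0230 after normexp with quantile normalization, 0.0501 with median scaling, 0.0231 in the value table and -0.0533 to 0.0109 without single arrays, the highest without control replicate 2) and for dab1a A_15_P414100 (-0.131 to 0.231 without single arrays, the lowest without control replicate 1), neither of them called in these settings. The difference dclk2a minus dclk1a was 0.291 and 0.251 after normexp with 75th percentile scaling and with quantile normalization (adjusted p = 0.0333 in the last) and 0.114 in the value table. The difference between the dclk1a probes A_15_P109266 and A_15_P142221 was 0.372, 0.339 and 0.272 in the same settings and -0.355 to 0.00959 without single arrays, the highest without morphant replicate 1, against -0.178. The cause of these turns was not tested. Within slides the exact tests have a smallest p of 0.125, so losses there say nothing about stability.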
